A study of Mus musculus with 24 samples.

Results

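Chemokines are small secreted proteins that guide the movement of leukocytes, and they act through receptors of the G protein-coupled family. The transcripts described here were the rows of the deposited expression table whose gene symbol begins with Ccl, Cxcl, Cx3cl, Xcl, Ccr, Cxcr, Cx3cr or Xcr followed directly by a digit. This rule found 58 members among 24532 genes, 39 of them ligands and 19 receptors. The rule uses the symbol alone, and it was set with earlier results of these data known.

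RNA was sequenced from the liver, the inguinal white adipose tissue (iWAT), the gastrocnemius muscle (GM) and the hypothalamus of C57BL/6 mice aged 8 weeks and fed chow, with 3 Ctrl and 3 LKO libraries per tissue and 24 in all. Ctrl mice carried *Crif1* with both alleles floxed. LKO mice carried the same floxed alleles and Alb-Cre, in which the albumin promoter drives Cre recombinase in hepatocytes, so that other cells of the liver and the other tissues keep an intact floxed gene. CRIF1 is a factor of the mitochondrial ribosome, which makes the membrane subunits of the respiratory chain. The comparison asks how the chemokine system differs between LKO and Ctrl mice in the tissue that lost *Crif1* and in tissues that did not.

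The members fall into families by the spacing of their first cysteines and by the receptor that reads them. CCR2, the receptor of CCL2, CCL7 and CCL12, brings monocytes out of the bone marrow, and CCL3, CCL4, CCL5, CCL6 and CCL9 are inflammatory CC ligands that attract monocytes, macrophages and T cells, several of them through CCR1. CXCR3 on T and NK cells reads the interferon-induced ligands CXCL9, CXCL10 and CXCL11, CXCR2 on neutrophils reads CXCL1, CXCL2, CXCL3 and CXCL5, and CXCR4 reads CXCL12, which is made constitutively by stromal cells. CCL19, CCL21 and CXCL13 organize lymphoid tissue through CCR7 and CXCR5.

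Levels were in FPKM, the fragment count of a transcript adjusted for its length and for the size of the library, so that levels can be set side by side between genes. The depth of the libraries was 4.45 to 8.09 gigabases, at which 1 read pair on a transcript of 1 kb is worth 0.0247 to 0.045 FPKM. A gene was tested in a tissue where at least 3 of the 6 libraries held at least 1 FPKM, with limma on log2(FPKM + 1). The unadjusted criterion asks for a 1.5-fold change and p under 0.05. The adjusted criterion asks for that fold with the Benjamini-Hochberg value, taken over the whole table, under 0.05. Fold changes on this scale understate those of low transcripts. *Crif1*, listed as Gadd45gip1, was at 14.6, 12.5 and 13.6 FPKM in Ctrl livers and at 5.4, 2.0 and 2.51 FPKM in LKO livers, which is -1.84 on the log2 scale (SE 0.27, adjusted p = 0.00357 by limma). LKO liver 1 held the highest of the 3 LKO levels. The defining markers of each tissue were abundant, with Ctrl sums of 56800 to 59900 FPKM for hepatocyte markers in liver, 20900 to 24600 FPKM for adipocyte markers in iWAT, 75100 to 82700 FPKM for skeletal muscle markers in GM and 687 to 807 FPKM for neuron markers in hypothalamus. In liver the median log2 fold change of all genes tested was 0.33, and with median-ratio scaling, which sets the typical gene equal between libraries, it was -0.04. The liver values below come from the fit without that scaling and include this shift, except where a scaled value is named.

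Of the 58 members, 36 reached 1 FPKM in at least 1 library and 22 stayed below it, and 15 reached 10 FPKM. They are clustered in the genome, with 14 on chromosome 11, 12 on chromosome 9 and 11 on chromosome 5. Ccl21c was not found in the transcript set searched, so it was not assessed for copies. Near-identical copies limit 5 of the other 57 members, of whose transcripts over 10% of the 100-base words also occur in another gene. These were Ccl21b (100% of its words), Ccl27b (97.9%), Ccl21a (50.3%), Ccl19 (39.3%) and Ccl27a (26.5%), and their levels may be split among copies. The deposited spans of Ccl21b, Ccl21c and Ccl27b on chromosome 4 cross 17 other genes each. Cxcl10 and Cxcl11 lie across Art3 on the opposite strand, Cxcl16 across Zmynd15, Ccl6 across E230016K23Rik and Ccl27a across Il11ra1, and no source used here states that strand was counted. Cxcr3 lies across G530011O06Rik and Ccl21a across Gm1987 on the same strand, which a count by strand would not separate.

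The levels in Ctrl mice differed widely between tissues. Cxcl12 was the most abundant member in liver, at 103 ± 9.24 FPKM (SD, n = 3). In GM it had the highest mean, at 27.2 ± 0.796 FPKM, but Cxcl14 followed at 26.7 ± 7.07 FPKM, a spread that covers the gap. In iWAT the order was led by Ccl6, a CCR1 ligand of myeloid cells, at 188 ± 86.2 FPKM, and by Ccl8, a CCR8 ligand made by resident macrophages, at 136 ± 57.2 FPKM, and the spread of each covers the gap between them. Ccl8 was at a mean of 0.0243 FPKM in Ctrl liver. In hypothalamus Cx3cl1, the membrane-bound neuronal ligand that microglia read through CX3CR1, led with 105 ± 0.686 FPKM. Its receptor Cx3cr1 was at 9.04 ± 1.77 FPKM there and at 0.0741 ± 0.0334 FPKM in Ctrl liver. In iWAT 27 members were tested, against 16 in liver, 14 in hypothalamus and 13 in GM. Differences between tissues were not tested.

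**Figure D1:**
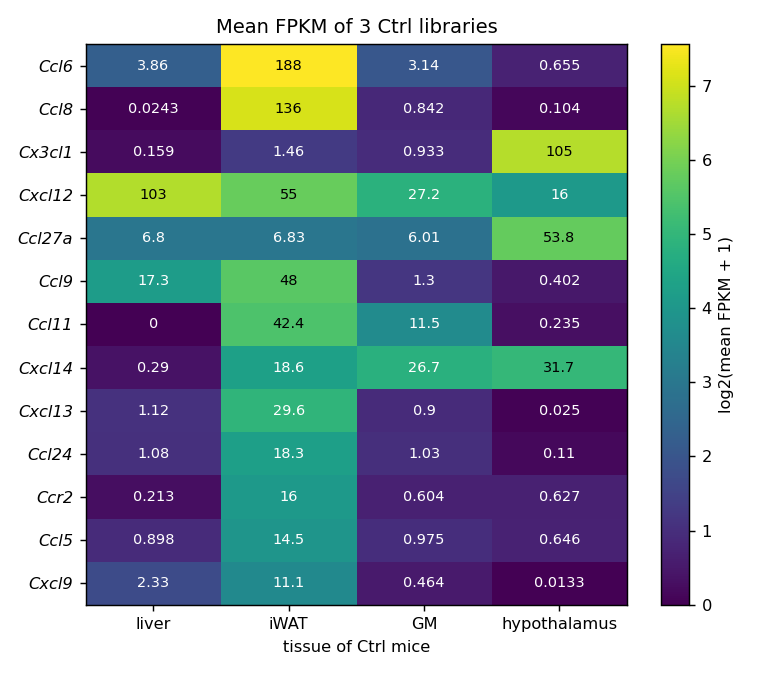
Mean FPKM over the 3 Ctrl libraries of each tissue (columns) for the 13 members that reached a mean of 10 FPKM in a genotype of a tissue (rows), with colour giving log2(mean FPKM + 1) and the number giving the mean FPKM. Ccl6 and Ccl8 are highest in iWAT, Cx3cl1 and Ccl27a in hypothalamus and Cxcl12 in liver.

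The promoters of 4 members are shown as examples of different orders of the liver and iWAT effects, chosen after their values were seen. Cxcl10 and Ccl19 had higher means in LKO livers and lower means in LKO iWAT, Cxcl9 is the neighbour and fellow CXCR3 ligand of Cxcl10 whose means were higher in both, and Cxcl12 had a lower mean in LKO livers and a higher one in LKO iWAT. The sequences are RefSeq windows on GRCm38.p6, from 250 bases before the transcript start to 50 bases after it, read 5′ to 3′ on the strand of the gene. Capitals mark matches on either strand to the interferon-stimulated response element (ISRE), searched as GAAA, any 2 bases and GAAA, and to the NF-kB site, searched as GGGA, any 2 bases and TTCC.
Cxcl10, chr5:92348840-92349139, minus strand: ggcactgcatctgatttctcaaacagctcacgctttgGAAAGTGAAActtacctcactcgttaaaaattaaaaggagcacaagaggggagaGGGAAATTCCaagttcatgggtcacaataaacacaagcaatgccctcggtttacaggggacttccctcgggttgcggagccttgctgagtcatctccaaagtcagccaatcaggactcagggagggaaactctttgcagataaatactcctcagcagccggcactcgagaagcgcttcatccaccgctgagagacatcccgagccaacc
Cxcl9, chr5:92328030-92328329, minus strand: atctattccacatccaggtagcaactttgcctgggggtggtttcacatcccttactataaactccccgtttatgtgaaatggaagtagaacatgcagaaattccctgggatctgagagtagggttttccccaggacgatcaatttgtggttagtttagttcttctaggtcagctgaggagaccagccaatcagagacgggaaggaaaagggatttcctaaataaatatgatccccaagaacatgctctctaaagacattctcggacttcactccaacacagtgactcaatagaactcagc
Ccl19, chr4:42756316-42756615, minus strand: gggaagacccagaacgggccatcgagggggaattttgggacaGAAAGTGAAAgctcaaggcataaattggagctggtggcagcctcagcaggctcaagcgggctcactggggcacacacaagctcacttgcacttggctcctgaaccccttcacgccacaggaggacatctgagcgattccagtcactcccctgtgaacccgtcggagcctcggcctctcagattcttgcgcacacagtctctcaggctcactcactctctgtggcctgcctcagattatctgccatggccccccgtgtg
Cxcl12, chr6:117168285-117168584, plus strand: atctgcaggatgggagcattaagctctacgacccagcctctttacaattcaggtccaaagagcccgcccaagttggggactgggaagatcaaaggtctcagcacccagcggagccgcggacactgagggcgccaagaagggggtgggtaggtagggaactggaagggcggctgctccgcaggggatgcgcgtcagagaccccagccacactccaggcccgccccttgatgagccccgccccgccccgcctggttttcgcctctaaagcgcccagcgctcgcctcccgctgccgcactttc

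The Cxcl10 window held the ISRE starting at base -213 and the NF-kB site at base -159 from the transcript start, and the Ccl19 window held the ISRE at base -208. Neither motif was found in the Cxcl9 or the Cxcl12 window, which says only that these letters are not there. RefSeq windows were matched for 42 of the 58 members, some with several starts, which made 49 windows. The ISRE was in 3 of the 49 (6.12%) and in 3.44% of the 32851 windows of all genes, and the NF-kB site in 6 (12.2%) and in 1.47%. The latter were the windows of Cxcl1, Cxcl2, Cxcl3, Cxcl10, Ccl1 and Ccr3. The 3 neighbours Cxcl1, Cxcl2 and Cxcl3 held it on both strands at overlapping positions between -97 and -70. TGATGNAAT, the C/EBP-ATF response element, was in windows of Ccl27a and Ccl27b alone among the members (0.965% of all windows), TATAAA in 26.5% of member windows and 13.6% of all, and TTCNNNGAA in 8.16% and 8.3%. A match is a description and was not tested against expression.

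In LKO livers 9 members rose and none fell past either criterion. They included the monocyte attractant Ccl2, the inflammatory CC ligands Ccl5, Ccl6 and Ccl9, the CXCR3 ligand Cxcl10, the CXCR6 ligand Cxcl16 and the CCR7 ligands Ccl19 and Ccl21b. The 9 were among 16 members tested, beside 28.9% of all 10956 genes tested for the unadjusted and 27.4% for the adjusted criterion, or 25.2% and 23.9% counted for higher transcripts alone and 3.75% and 3.5% for lower ones. Ccl2, Ccl19 and Ccl21b were tested because their LKO libraries alone reached 1 FPKM, so they had to differ. With median-ratio scaling the unadjusted criterion was passed by 8 members higher and 2 lower (Ccl27a and Cxcl12), and with quantile normalization by 4 higher and the same 2 lower. By sign 14 of the 16 were higher, where 81.5% of all genes were. The median log2 fold change of the 16 was 0.74, against 0.33 over all genes, and with median-ratio scaling it was 0.49, against -0.04. Without the genes that reached 1 FPKM in their LKO libraries alone, 6 of 13 members passed the adjusted criterion higher, where 21.2% of 10452 genes did, and the medians were 0.65 and 0.31. Without LKO liver 2 or without LKO liver 3 the adjusted criterion was passed by 5 members, and without LKO liver 1 by 6, of which Cxcl12 was lower. In these fits Ccl2, Ccl19 and Ccl21b no longer had the 3 libraries at 1 FPKM that the filter asks for. Because the tissue was sequenced in bulk, more cells of a type and more RNA per cell cannot be told apart.

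Among the CCR2 ligands, Ccl2 (chromosome 11, 82035577 to 82037452, mm10) was at 0.309, 0.496 and 0.136 FPKM in Ctrl and at 3.55, 3.17 and 3.89 FPKM in LKO livers. The groups were far apart, with a log2 fold change of 1.79 (SE 0.13, limma adjusted p = 0.000421), for a transcript that was tested through its LKO libraries alone. Ccl7, its neighbour, was under the filter, at 0 to 0.0936 FPKM in Ctrl and 0.53 to 0.803 FPKM in LKO livers. The third ligand, Ccl12, overlapped, at 0 to 0.0678 FPKM in Ctrl and 0 to 0.241 FPKM in LKO livers. Their receptor Ccr2 was also under the filter, at 0.176, 0.167 and 0.296 FPKM in Ctrl and 1.35, 0.972 and 1.24 FPKM in LKO livers. With no filter on low values, Ccl7 had a log2 fold change of 0.65 (adjusted p = 0.0051 by limma) and Ccr2 one of 0.85 (adjusted p = 0.0042).

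Of the 5 inflammatory CC ligands 3 were tested and passed. Ccl6 (chromosome 11, 83587886 to 83593087) was at 3.33, 3.94 and 4.31 FPKM in Ctrl and 8.02, 19.3 and 24 FPKM in LKO livers, with a log2 fold change of 1.78 (SE 0.35, adjusted p = 0.0093, and 0.0634 with ordinary variances). LKO liver 1 had the lowest of its LKO levels. Ccl9, which lies beside Ccl6, was at 18.8, 16.2 and 17.0 FPKM in Ctrl and 41.6, 27.5 and 20.2 FPKM in LKO livers, and here LKO liver 1 had the highest. Its log2 fold change of 0.69 (SE 0.24, adjusted p = 0.0491) was close to the threshold, and with median-ratio scaling it was 0.27 (adjusted p = 0.535). The call was lost without Ctrl liver 1, 2 or 3 and without LKO liver 1 or 2. Over the fits with 1 library left out the log2 fold change was 0.43 to 0.93, with limma adjusted p up to 0.136. Ccl5, made by T and NK cells and macrophages, was at 0.804, 0.427 and 1.46 FPKM in Ctrl and 2.81, 1.8 and 3.55 FPKM in LKO livers, with a log2 fold change of 0.98 (SE 0.24, adjusted p = 0.0197, and 0.0656 with median-ratio scaling). Without Ctrl liver 1, Ctrl liver 2 or LKO liver 3 its adjusted p was 0.0634, 0.0685 and 0.0518. The other 2 ligands, Ccl3 and Ccl4, were under the filter, and Ccl4 was at 0 to 0.11 FPKM in Ctrl and 0.861 to 1.6 FPKM in LKO livers.

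Of the CXCR3 ligands, Cxcl10 was at 1.28, 1.32 and 2.2 FPKM in Ctrl and 6.33, 3.38 and 5.9 FPKM in LKO livers, with a log2 fold change of 1.24 (SE 0.23, adjusted p = 0.00762, and 0.0521 with quantile normalization and 0.053 with ordinary variances). Its window above is the one with both motifs. Cxcl9 was at 1.49, 2.04 and 3.46 FPKM in Ctrl and 6.12, 2.75 and 3.92 FPKM in LKO livers. These ranges overlapped, and the log2 fold change of 0.65 (SE 0.29) had an adjusted p of 0.0962 by limma. With median-ratio scaling the log2 fold change of Cxcl9 was 0.33 (limma adjusted p = 0.465). Cxcl9 passed the adjusted criterion in the fit of all 24 libraries. It passed the unadjusted one also with the deposited TPM, without Ctrl liver 3 and without LKO liver 2. Cxcl11 and the receptor Cxcr3 were under 1 FPKM in every liver library, with Cxcr3 at 0.255 to 0.321 FPKM in Ctrl and 0.178 to 0.501 FPKM in LKO. The neutrophil attractant Cxcl1 was at 1.94, 0.645 and 1.33 FPKM in Ctrl and 5.81, 2.11 and 1.04 FPKM in LKO livers, a spread in which LKO liver 1 stood alone (log2 fold change 0.65, SE 0.43, adjusted p = 0.238).

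Cxcl16, a membrane-bound ligand that also acts as a scavenger receptor, was at 2.98, 2.34 and 2.67 FPKM in Ctrl and 6.36, 7.04 and 8.42 FPKM in LKO livers. Its log2 fold change was 1.17 (SE 0.14, adjusted p = 0.00172), and 0.81 with median-ratio scaling. Its receptor Cxcr6 was at 0.152 to 0.429 FPKM in Ctrl and 0.183 to 0.468 FPKM in LKO livers, with overlapping groups. Among the ligands of lymphoid tissue, both Ccl19 and Ccl21b were tested through their LKO libraries alone. Ccl19 was at 0.977, 0.557 and 0.52 FPKM in Ctrl and 2.28, 1.61 and 1.99 FPKM in LKO livers (log2 fold change 0.82, SE 0.14, adjusted p = 0.00633). The call was lost with quantile normalization (0.44, adjusted p = 0.0893) and in the fit of all 24 libraries (adjusted p = 0.131). Ccl21b was at 0.242, 0.408 and 0.461 FPKM in Ctrl and 1.18, 1.52 and 1.43 FPKM in LKO livers (log2 fold change 0.79, SE 0.11, adjusted p = 0.00293), a level that near-identical copies may share, and it fell under the 1.5-fold asked for with quantile normalization (0.45). Cxcl13, with a log2 fold change of 0.24, and the CCR3 ligand Ccl24, with 0.20, took the other sign with median-ratio scaling (-0.03 and -0.05). Cxcl13 was at 0.651 FPKM in LKO liver 1 and at 1.73 and 2.49 FPKM in the other LKO livers, and without that library its log2 fold change was 0.54 (limma adjusted p = 0.00755), under the 1.5-fold asked for.

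Cxcl12 was the most abundant member in LKO livers too, but its level was lower in 2 of the 3. It was at 101, 113 and 94.4 FPKM in Ctrl and 99.2, 55.6 and 57.3 FPKM in LKO livers, so that LKO liver 1 lay within the Ctrl range. The log2 fold change was -0.58 (SE 0.22, limma adjusted p = 0.0684). It was -1.02 with median-ratio scaling (adjusted p = 0.0431), which passed the criterion, and -0.73 with quantile normalization (adjusted p = 0.0891). Its receptor Cxcr4 was under the filter, at 0.248, 0.357 and 0.393 FPKM in Ctrl and 0.802, 1.24 and 1.69 FPKM in LKO livers, and had a log2 fold change of 0.73 with no filter (limma adjusted p = 0.019). Ccl27a, at 6.21 to 7.16 FPKM in Ctrl and 3.71 to 6.33 FPKM in LKO livers, had a log2 fold change of -0.34 (adjusted p = 0.147). It was -0.71 with median-ratio scaling (adjusted p = 0.0537) and -0.74 with quantile normalization (adjusted p = 0.0606), both past the unadjusted criterion, and -0.47 without LKO liver 1 (adjusted p = 0.0275, by less than the 1.5-fold asked for). Ccl25, a CCR9 ligand, had a log2 fold change of 0.03 that became -0.30 with median-ratio scaling (limma adjusted p = 0.0765). With quantile normalization it was -0.40 (limma adjusted p = 0.0375), by less than the 1.5-fold asked for.

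**Figure D2:**
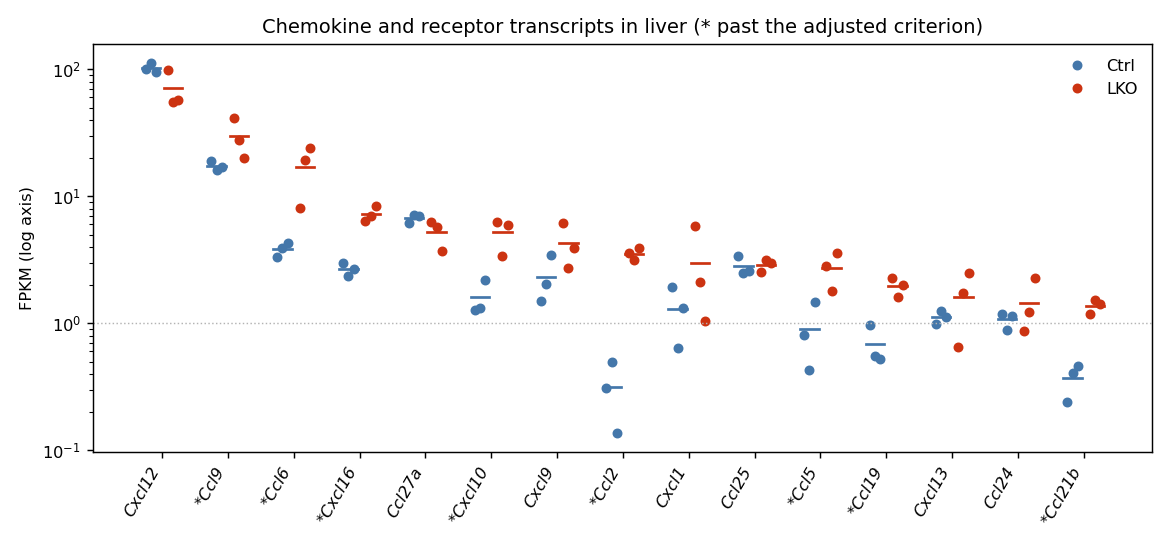
FPKM (log axis) of 15 of the 16 members tested in liver, in each of the 3 Ctrl (blue) and 3 LKO (red) libraries, with bars for the means, ordered by the LKO mean, and an asterisk on the 8 shown that passed the adjusted criterion. The 3 LKO points lie above the 3 Ctrl points for the 8 marked members, while Cxcl12, Cxcl9, Cxcl1, Ccl27a, Ccl25, Cxcl13 and Ccl24 overlap.

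The groups did not overlap for 9 of the 16 tested members, all with LKO higher, where 53% of all tested genes were higher without overlap. The filter fixed this for Ccl2, Ccl19 and Ccl21b, and without such genes it held for 6 of 13 members and 50.8% of all genes. Of the 42 members under the filter, 5 were at 0 in all 6 liver libraries (Ccl1, Ccl26, Cxcl3, Cxcl15 and Cxcr1). Of the other 37, 17 had every LKO library above every Ctrl library and Ccr10 had the reverse. Among all 6927 genes above 0 but not tested, 29.8% had LKO higher without overlap and 3.23% lower. Receptors made up 9 of the 17, all below 2 FPKM: Ccr1, Ccr2, Ccr3, Ccr7, Ccr9, Cx3cr1, Cxcr2, Cxcr4 and Xcr1. Cx3cr1 was at 0.0466 to 0.111 FPKM in Ctrl and 0.409 to 0.557 FPKM in LKO livers, and the neutrophil receptor Cxcr2 at 0.0246 to 0.0597 FPKM and 0.125 to 0.189 FPKM. The summed level of the 19 receptors was 3.01 to 3.31 FPKM in Ctrl and 7.31 to 10.7 FPKM in LKO livers, while that of the 39 ligands, carried by Cxcl12, was 142 to 154 FPKM and 146 to 200 FPKM.

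Myeloid markers were higher in the same livers, and their part in the chemokine values was not tested. All 8 macrophage markers passed the adjusted criterion, higher in LKO, with a summed level of 162 to 178 FPKM in Ctrl and 367 to 524 FPKM in LKO livers, and so did all 5 Kupffer cell markers (93.4 to 97.5 FPKM and 205 to 326 FPKM). These are RNA levels of bulk tissue and not cell counts. By flow cytometry of LKO livers, the study reports fewer resident Kupffer cells and more infiltrating monocytes and neutrophils. Of the 5 monocyte markers only 1 was tested and it passed, with sums of 5.86 to 6.94 FPKM and 14.2 to 24.1 FPKM. Of the 8 neutrophil markers the 2 tested, S100a8 and S100a9, passed, while Ly6g was at 0 in 5 of the 6 libraries and at 0.0445 FPKM in the other. All 8 summed to 1.01 to 1.6 FPKM in Ctrl and 7.77 to 10 FPKM in LKO livers. No Ctrl library could therefore hold both tested markers at 1 FPKM. At least 1 of the 2 thus met the filter with the help of LKO libraries, where it was high, which limits what its pass shows. None of the 8 T cell markers was tested, and their sums overlapped (1.65 to 2.56 FPKM and 1.89 to 2.92 FPKM). The NK cell markers, none of them tested either, summed to 0.165 to 0.346 FPKM and 0.594 to 1.19 FPKM. All 5 stellate cell and all 5 cholangiocyte markers passed higher as well, as did 1 of 4 markers of sinusoidal endothelium, the 2 tested adipocyte markers and the 2 tested microglia markers, and of the 5 hepatocyte markers 1 passed lower. The only neuron marker tested passed lower, and no marker of B cells, dendritic cells, skeletal muscle or red blood cells passed the adjusted criterion, while none of mesothelium or lymph node stroma was tested.

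In 3 lists of the wider chemokine system, genes passed higher in LKO livers and none passed lower, and the medians given here include the shift of 0.33 seen over all genes. Of 15 chemokine-related genes outside the symbol rule, 11 were tested and 6 passed the adjusted criterion, all higher, with a median log2 fold change of 0.89. The largest were Mif, a cytokine read by CD74 and CXCR4 (1.08, SE 0.35, adjusted p = 0.0424), Cklf (0.96, adjusted p = 0.00334) and the platelet chemokine Pf4 (0.96, adjusted p = 0.00486). Mif was at 175 FPKM in LKO liver 1, within the Ctrl range of 123 to 179 FPKM, and at 366 and 475 FPKM in the other 2. Of 30 listed genes of chemokine receptor signalling, 28 were in the table, 21 were tested and 14 passed, all higher, with a median of 0.69, among them the myeloid GTPase Rac2 (1.00) and the G protein subunit Gnb1 (0.97). Of 25 inducers of chemokine transcription, 19 were tested and 10 passed, all higher, with a median of 0.65. Jun, a subunit of AP-1, was at 2.36, 6.51 and 2.77 FPKM in Ctrl and 16.9, 24.5 and 27.1 FPKM in LKO livers, a log2 fold change of 2.36 (SE 0.32, adjusted p = 0.00274). The NF-kB subunit Relb (1.45) and Junb (1.39) followed. The lists, like the members, are set beside the 23.9% of all genes that passed the adjusted criterion higher in LKO.

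In iWAT no member passed the adjusted criterion, and no gene of the 12288 tested did. The smallest adjusted p among the 27 members tested was 0.161 by limma, and 8 members had an unadjusted p under 0.05, as did 1842 of the 12288 genes. The unadjusted criterion was passed by 4 members, beside 3.25% of all genes, 1 of them higher in LKO (1.95% of all genes) and 3 lower (1.29%). The higher member was Cxcl9 and the lower ones were Ccl8, Cxcl10 and Ccl19. With median-ratio scaling 4 were lower and none higher, as Cxcr4 was gained and Cxcl9 lost. By sign 12 of the 27 were higher, where 47.6% of all genes were, and their median log2 fold change was -0.04, against -0.01 for all genes.

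Ccl8 (chromosome 11, 82115185 to 82116799) was at 72.6, 183 and 153 FPKM in Ctrl and 65.4, 46.8 and 39.8 FPKM in LKO iWAT. Each LKO library was below each Ctrl library, though Ctrl 1 lay close to LKO 1, where 11% of all genes were lower without overlap. The log2 fold change was -1.34 (SE 0.36, limma adjusted p = 0.174), and its adjusted p ranged from 0.076 to 0.488 over the alternatives. Ctrl iWAT 2 also held the highest level of the 8 macrophage markers, whose sums were 1250, 2950 and 2050 FPKM in Ctrl and 1230, 1390 and 1570 FPKM in LKO. None of these markers passed, and their part in the Ccl8 values was not tested. Without Ctrl 2 the log2 fold change of Ccl8 was -1.07 (limma adjusted p = 0.346).

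Of the CXCR3 ligands in iWAT, Cxcl9 was at 10.3, 10.6 and 12.5 FPKM in Ctrl and 18.6, 13.7 and 19.9 FPKM in LKO, without overlap (9.76% of all genes were higher in this way), a log2 fold change of 0.59 (SE 0.15, limma adjusted p = 0.161). It missed the fold of 1.5 without Ctrl 1 (0.54), Ctrl 2 (0.56), LKO 1 (0.54) or LKO 3 (0.49) and with median-ratio scaling (0.58). Cxcl10 was at 7.04, 5.96 and 3.08 FPKM in Ctrl and 3.11, 1.26 and 2.51 FPKM in LKO, where Ctrl 3 lay just below LKO 1, a log2 fold change of -0.94 (SE 0.31, limma adjusted p = 0.247). It no longer passed the unadjusted criterion without Ctrl 1 (-0.74), Ctrl 2 (-0.84) or LKO 2 (-0.69) or with ordinary variances. Their receptor Cxcr3 was at 1.7 to 2.99 FPKM in Ctrl and 2.02 to 2.5 FPKM in LKO (log2 fold change -0.04, SE 0.16). Ccl19 was at 1.98, 2.58 and 3.72 FPKM in Ctrl and 1.75, 1.43 and 1.14 FPKM in LKO, without overlap (log2 fold change -0.61, SE 0.19, limma adjusted p = 0.219). It no longer passed without Ctrl 3 (-0.43) or LKO 3 (-0.51), with ordinary variances or in the fit of all 24 libraries.

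Several members of iWAT gave wide Ctrl spreads. Ccl6 was at 92.0, 259 and 212 FPKM in Ctrl and 119, 226 and 174 FPKM in LKO, and Ccl9 at 21.6, 70.3 and 52.2 FPKM and 34.6, 56.3 and 48.4 FPKM, with log2 fold changes of -0.04 and 0.08. In both, Ctrl 1 was the lowest library and Ctrl 2 the highest. The monocyte receptor Ccr2 was at 9.08, 23.9 and 15.0 FPKM in Ctrl and 10.4, 8.02 and 10.3 FPKM in LKO (log2 fold change -0.60, SE 0.31, adjusted p = 0.422). Its ligand Ccl2 was at 13.4 FPKM in Ctrl 2 and at 1.68 to 4.67 FPKM in the other 5 libraries, and Ccl7 (1.2 to 8.79 FPKM) and Ccl5 (7.39 to 24.5 FPKM) were also highest in Ctrl 2. Without that library, Ccl2 had a log2 fold change of 0.45 in place of -0.32, and Ccl5, at 15.8, 16.0 and 24.2 FPKM in LKO, passed the unadjusted criterion higher. The CCR2 ligand Ccl12 was at 2.17, 3.89 and 2.19 FPKM in Ctrl and 6.27, 1.4 and 1.25 FPKM in LKO, the receptor Ccr1 at 1.58, 5.19 and 4.12 FPKM and 4.77, 3.28 and 5.06 FPKM, and Ccr10, which reads CCL27, at 2.4, 1.81 and 2.35 FPKM and 2.33, 1.62 and 1.48 FPKM. The groups overlapped for all 3 of these. Cxcr4 was at 4.37, 8.73 and 5.26 FPKM in Ctrl and 1.85, 3.59 and 4.66 FPKM in LKO (log2 fold change -0.71, SE 0.31, adjusted p = 0.35). It passed the unadjusted criterion lower with median-ratio scaling, with quantile normalization and with the replicate number as a block. The same held in the fit of all 24 libraries and without Ctrl 1 or LKO 3.

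Among the stromal ligands and eotaxins of iWAT, Cxcl12 was at 45.7, 62.0 and 57.3 FPKM in Ctrl and 59.7, 75.6 and 90.5 FPKM in LKO (log2 fold change 0.44, SE 0.18, limma adjusted p = 0.319). Ccl11, or eotaxin, which attracts eosinophils through CCR3, was at 35.1, 46.5 and 45.5 FPKM in Ctrl and 46.4, 53.4 and 54.4 FPKM in LKO, and Ccl24, another eotaxin, at 20.7, 15.1 and 19.2 FPKM and 15.3, 11.3 and 9.93 FPKM. Their log2 fold changes were 0.28 (SE 0.13, adjusted p = 0.364) and -0.56 (SE 0.18, adjusted p = 0.23). Cxcl14 was at 16.0 to 23.2 FPKM in Ctrl and 20.3 to 28.7 FPKM in LKO, and Cxcl13, made by stromal cells of lymphoid tissue and by macrophages, at 25.6 to 31.7 FPKM and 16.8 to 46.2 FPKM, both overlapping. Cxcl13 had a log2 fold change of -0.20 (SE 0.34) that took either sign as single libraries were left out. Of the 3 lists of the wider system none had a member past the adjusted criterion in iWAT. The largest changes were those of Cklf (-0.50), Pf4 (-0.49) and Dpp4 (-0.48), of the kinase Jak3 (0.44), Pik3cd (-0.41) and Vav1 (-0.37), and of the NF-kB cofactor Bcl3 (-0.82, SE 0.14, limma adjusted p = 0.0944, and past the unadjusted criterion), Tnfaip3 (-0.59) and Junb (0.56). Summed neutrophil markers were 3.69 to 5.13 FPKM in Ctrl and 11.9 to 23.1 FPKM in LKO iWAT, with 2 of the 3 tested past the unadjusted criterion, while the 4 CXCR2 ligands stayed under the filter. Of the other cell type lists in iWAT, 2 of 3 tested red blood cell markers and 1 of 2 tested hepatocyte markers passed the unadjusted criterion higher and 1 of 5 adipocyte markers lower. The red blood cell sums were 226, 606 and 466 FPKM in Ctrl and 41.7, 58.0 and 853 FPKM in LKO, so that the list as a whole overlapped.

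**Figure D3:**
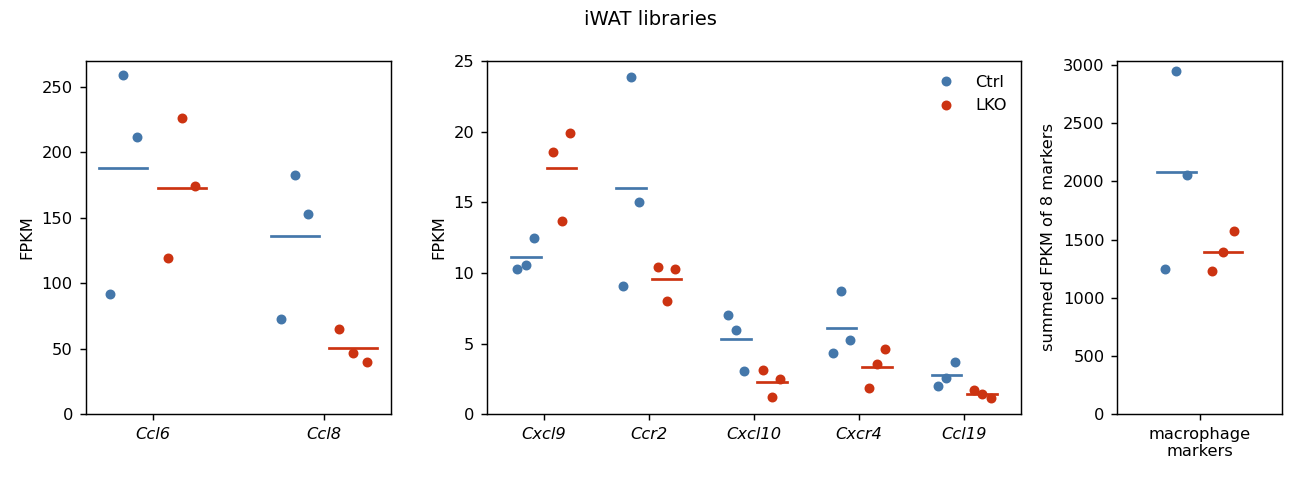
FPKM in the 3 Ctrl (blue) and 3 LKO (red) iWAT libraries for 2 abundant members (left), for 5 less abundant ones (middle), and the summed FPKM of 8 macrophage markers (right), with bars for the means and all axes from 0. Ctrl library 2 is the highest for Ccl6, Ccl8, Ccr2, Cxcr4 and the markers, and Cxcl9 is the member shown whose 3 LKO points lie above the Ctrl points.

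Whether the LKO effect differed between liver and iWAT was tested in 1 limma fit of the 12 libraries, as the liver effect minus the iWAT effect. Of 28 members tested, 9 differed with an adjusted p under 0.05, beside 31.2% of all 13178 genes. The effect was more positive in liver for 8 (26.9% of all genes) and more negative for 1 (4.26%). With median-ratio scaling 6 were more positive and 3 more negative, and with quantile normalization 6 and 2. The differences were 2.17 for Cxcl10 (SE 0.42, adjusted p = 0.00488), 1.42 for Ccl19 (SE 0.25, adjusted p = 0.00292), 1.73 for Ccl8 (SE 0.43, adjusted p = 0.0148), 1.45 for Ccr2 (SE 0.35, adjusted p = 0.0131) and 1.45 for Cxcr4 (SE 0.37, adjusted p = 0.016). For these 5 the estimates had opposite signs, positive in liver and negative in iWAT. Cxcl16 differed by 1.07 (SE 0.26, adjusted p = 0.0134), and these 6 passed in each of the 20 alternatives run. Ccl2 (2.11, adjusted p = 0.0431), Ccl6 (1.81, adjusted p = 0.0382) and Cxcl12 (-1.02, adjusted p = 0.0295) passed in 8, 7 and 9 of the 20. With median-ratio scaling the differences of the 9 were 0.71 to 1.88 and, for Cxcl12, -1.45, and those of Ccl2 and Ccl6 had adjusted p-values of 0.0811 and 0.073. Cxcl9 differed by 0.07 (SE 0.35, adjusted p = 0.899), with estimates of 0.65 in liver and 0.59 in iWAT. Ccl8, Ccr2 and Cxcr4 were under the filter in liver and entered through iWAT, and Ccl8 was at 0 to 0.073 FPKM in Ctrl and 0 to 0.631 FPKM in LKO livers.

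**Figure D4:**
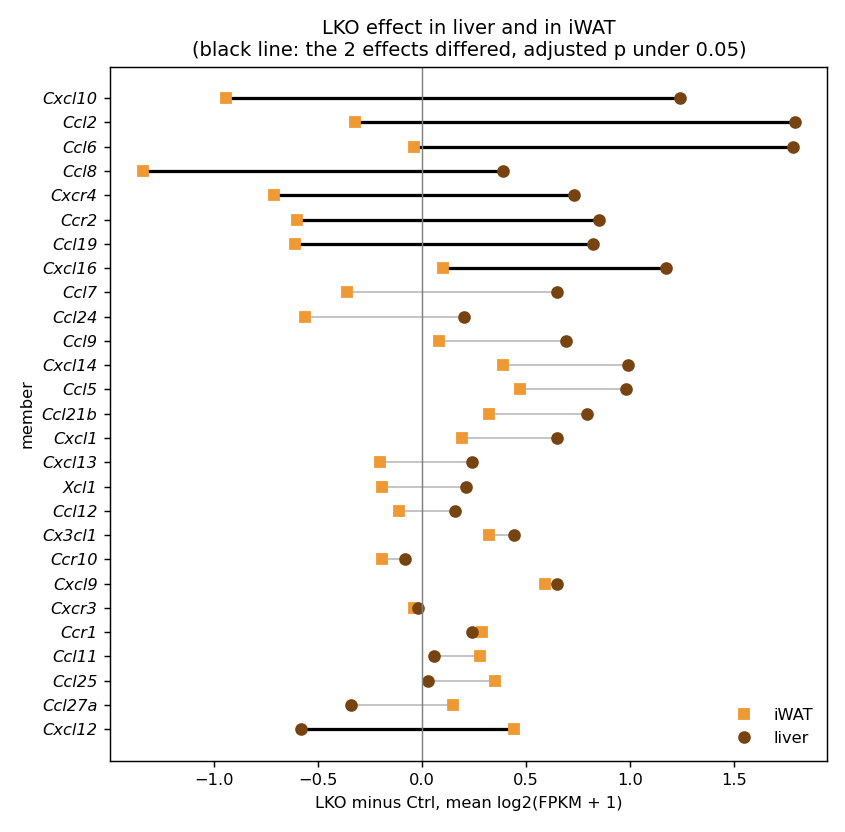
LKO minus Ctrl difference of mean log2(FPKM + 1) in liver (circles) and iWAT (squares) for 27 of the 28 members tested for a difference between the tissues, ordered by that difference, with a black line where its adjusted p was under 0.05. The liver estimate lies to the right for 8 of the 9 members with a black line and to the left for Cxcl12.

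In GM 13 members were tested and 1 passed the unadjusted criterion, beside 0.901% of all genes, and none passed the adjusted criterion, as did no gene of the 10877. Ccl6 was at 2.4, 4.23 and 2.79 FPKM in Ctrl and 5.39, 6.99 and 5.43 FPKM in LKO, without overlap (4.38% of all genes were higher in this way), with a log2 fold change of 0.76 (SE 0.17, limma adjusted p = 0.461). By sign 9 of the 13 were higher, where 40.0% of all genes were. Of the 13, 4 had an unadjusted p under 0.05, as did 743 of the 10877 genes, the others being Ccl9 (0.51), Ccl11 (0.42) and Cxcl14 (0.40). Ccl11 was at 12.8, 12.5 and 9.07 FPKM in Ctrl and 14.4, 17.6 and 14.9 FPKM in LKO (adjusted p = 0.62), and Cxcl12 at 26.7 to 28.1 FPKM and 25.2 to 34.5 FPKM.

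GM LKO 1 held the highest level of several ligands and receptors of lymphoid tissue. Ccl19 was at 7.16 FPKM in it and at 0.375 and 0.749 FPKM in the other LKO libraries, and at 2.59, 2.65 and 0.404 FPKM in Ctrl. Cxcl13 was at 6.12 FPKM against 0.389 and 0.117 FPKM, the lymphoid receptor Ccr7 at 3.14 FPKM against 0 and 0.023 FPKM, and the B cell receptor Cxcr5 at 1.29 FPKM against 0.0458 and 0 FPKM. The CCR7 ligands of the Ccl21 family did not stand apart in it, with Ccl21b at 4.86 FPKM beside 3.64 FPKM in Ctrl 1, and Ccl21a at 0.583 FPKM beside 0.848 FPKM in LKO 2. The same library had the highest sum of the 7 B cell markers, at 37.6 FPKM against 0.0972 and 0.144 FPKM in LKO and 8.37, 5.79 and 0.184 FPKM in Ctrl. It was also highest for T cell markers (20.9 FPKM, and 0.0496 to 6.74 FPKM elsewhere) and for 4 markers of lymph node stroma (19.3 FPKM, and 0 to 3.84 FPKM elsewhere). The part of lymphoid tissue in these values was not tested. Without GM LKO 1, Ccl6 had a log2 fold change of 0.82 (adjusted p = 0.178 by limma), and was the member past the unadjusted criterion. Without Ctrl 2 there were 3 such members, with Ccl9 and Cxcl14, and without LKO 3 there were 2, with Ccl9. No marker of any list passed either criterion in GM or hypothalamus.

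**Figure D5:**
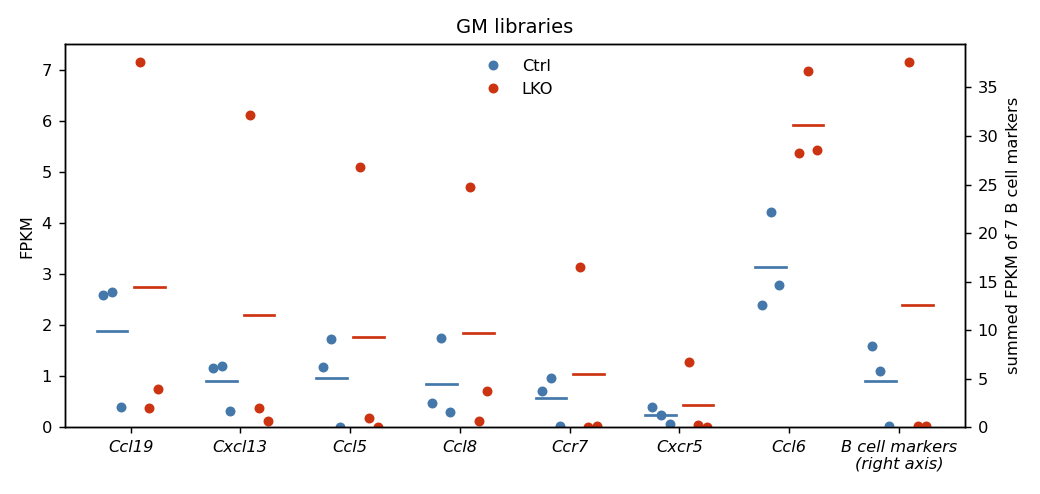
FPKM in the 3 Ctrl (blue) and 3 LKO (red) GM libraries for 7 members (left axis) and the summed FPKM of 7 B cell markers (right axis), with bars for the means and both axes from 0. LKO library 1 is the highest point for Ccl19, Cxcl13, Ccl5, Ccl8, Ccr7, Cxcr5 and the B cell markers but not for Ccl6, whose LKO points are all above the Ctrl points.

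In hypothalamus 14 members were tested and 1 passed the unadjusted criterion, beside 0.333% of all genes, while none passed the adjusted one (0.0217% of all genes). This was Ccl27b, at 2.04, 4.09 and 4.7 FPKM in Ctrl and 1.6, 1.63 and 1.41 FPKM in LKO, without overlap (4.97% of all genes were lower in this way), a log2 fold change of -0.81 (SE 0.22, limma adjusted p = 0.999). Without Ctrl 1, the lowest of the Ctrl libraries, it passed the adjusted criterion (-1.08, limma adjusted p = 0.0217), as it did in the fit of all 24 libraries (-0.81, limma adjusted p = 0.00883). Since 97.9% of its 100-base words occur in Gm13306 or Ccl27a, the change cannot be assigned to this copy. Ccl27a itself was at 44.1, 47.5 and 69.8 FPKM in Ctrl and 47.3, 46.0 and 45.2 FPKM in LKO (log2 fold change -0.19, SE 0.16). Cx3cl1 was at 105, 106 and 104 FPKM in Ctrl and 110, 110 and 107 FPKM in LKO, which did not overlap (4.74% of all genes were higher in this way) but differed by 0.06 on the log2 scale (SE 0.05, adjusted p = 0.999 by limma). Its receptor Cx3cr1 was at 11.1, 8.16 and 7.87 FPKM and 7.88, 7.52 and 7.08 FPKM (log2 fold change -0.23, SE 0.12), Cxcl14 at 29.2 to 34.9 FPKM and 29.7 to 30.5 FPKM, and Cxcl12 at 15.2 to 17.0 FPKM and 12.3 to 17.1 FPKM. By sign 4 of the 14 members were higher, where 47.4% of all genes were. The 3 lists of the wider system had no gene past either criterion in GM or hypothalamus.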

How the data were processed

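RNA of 24 libraries was prepared with TruSeq RNA v2 and read as 100-base pairs on a HiSeq4000. The submitters' processing notes name FastQC 0.11.5, Trimmomatic 0.32, HISAT2 2.0.5, Bowtie2 2.2.6, STAR 2.5.2b, StringTie 1.3.3b and mm10. The authors deposited FPKM per gene in a joined table and FPKM, TPM and coverage per library, and FPKM of the joined table was used, which equals that of the library tables in all 24 libraries for 55 of the 58 members (not for Ccl21b, Ccl21c and Ccl27b). The deposited TPM was an alternative and the deposited coverage was used only for depth.

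Fits were made separately per tissue in limma 3.58.1 (lmFit and eBayes with a mean-variance trend, R 4.3.3) on log2(FPKM + 1), with the filter and criteria given above, and liver against iWAT by an interaction term. The steps were tested on simulated data. Members were described in every library where they passed the unadjusted criterion in a tissue, reached a mean of 10 FPKM, or were the main receptor or ligand of such a member above 1 FPKM in 3 libraries of liver or iWAT, 25 in all, and from the lists up to 3 genes with the largest change in liver and iWAT. Counts cover all members and listed genes, of which 2 genes are not reported here by name. Other members are named by range, after their values were seen. Members and lists (3 of the chemokine system and the cell type markers) were chosen with earlier results of these data known. An exact permutation test of 3 against 3 libraries cannot go below 0.1 and was not used. The labels do not say whether tissues came from the same mice, so the tissues were treated as independent. The p-values set each difference against the spread between these libraries. If the tissues did come from the same mice, the p-values of liver against iWAT do not allow for it. Alternatives were the pseudocount, the filter, scaling, variances, pooled fits, the replicate block, a stricter fold and leaving out each library. Figures used matplotlib 3.10.9.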

Additional observations from a re-analysis of the deposited data

Results flagged for a closer look

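For the 9 members below, of 28 tested, the LKO effect differed between liver and iWAT by the test of the difference itself, a share close to the 31.2% of all 13178 genes that did. The values are given as the liver log2 fold change minus the iWAT log2 fold change. Cxcl10 differed by 2.17 (1.24 in liver and -0.94 in iWAT), Ccl2 by 2.11 (1.79 and -0.32), Ccl6 by 1.81 (1.78 and -0.04) and Ccl8 by 1.73 (0.39 and -1.34). Ccr2 differed by 1.45 (0.85 and -0.60), Cxcr4 by 1.45 (0.73 and -0.71), Ccl19 by 1.42 (0.82 and -0.61) and Cxcl16 by 1.07 (1.17 and 0.10). Cxcl12 differed by -1.02 (-0.58 and 0.44). Macrophage markers summed to 162 to 178 FPKM in Ctrl and 367 to 524 FPKM in LKO livers, and to 1250 to 2950 FPKM and 1230 to 1570 FPKM in iWAT, and their part in these differences was not tested.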

How the results depend on the processing

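In liver, where 9 members passed both criteria, a fold of at least 2 left 4 by either criterion, no filter on low values gave 15 unadjusted and 14 adjusted calls and the deposited TPM 15 and 14, while quantile normalization gave 3 adjusted calls and ordinary variances 4. The fit of all 24 libraries gave 8 adjusted calls in liver, with Cxcl9 gained and Ccl19 and Ccl5 lost. In iWAT, with 4 unadjusted calls and 0 adjusted ones, a fold of at least 2 left 1, ordinary variances gave 2, and the fit of all 24 libraries gave 1 adjusted call, Cxcl10. In GM, with 1 unadjusted call, a fold of at least 2 left 0, and a pseudocount of 0.1 and the deposited TPM gave 2 each. In hypothalamus, with 1, a fold of at least 2 left 0, the deposited TPM gave 2 and the fit of all 24 libraries gave 1 adjusted call, Ccl27b. In liver Ccl24 reversed to -0.05 with median-ratio scaling and -0.21 with quantile normalization, and Cxcl13 to -0.03 and -0.19. The causes were not tested.

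Leaving out 1 library at a time gave 6 to 9 unadjusted and 5 to 8 adjusted calls in liver, 3 to 6 and 0 to 0 in iWAT, 1 to 3 and 0 to 0 in GM, 1 to 1 and 0 to 1 in hypothalamus (Ccl27b, without Ctrl 1), and 6 to 13 members that differed between liver and iWAT. The log2 fold change took both signs for Ccl24 in liver (-0.02 to 0.37) and in iWAT for Ccl12 (-0.66 to 0.19), Ccl2 (-0.74 to 0.45), Ccl6 (-0.48 to 0.26), Ccl7 (-0.83 to 0.15), Ccl9 (-0.40 to 0.43), Ccr1 (-0.08 to 0.55), Cxcl13 (-0.62 to 0.09), Cxcl16 (-0.08 to 0.32) and Cxcr3 (-0.21 to 0.08). Same-numbered Ctrl and LKO libraries correlated at -0.135 to 0.354 in their deviations from the group means, over 0.1 in 6 of 12 pairs. Differently numbered libraries of a tissue correlated at -0.419 to 0.298. A pairing of the samples by number was neither established nor excluded. With the replicate number as a block there were 9 and 9 calls in liver, 5 unadjusted calls in iWAT, 1 in GM, 1 in hypothalamus and 8 differences between liver and iWAT. Depth limits values near that of 1 read pair, 0.0247 to 0.045 FPKM for a transcript of 1 kb.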
